A study of Mus musculus with 8 samples.

Results

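The Ikaros family is a group of zinc finger transcription factors of lymphoid cells, encoded in the mouse by Ikzf1 (Ikaros), Ikzf2 (Helios), Ikzf3 (Aiolos), Ikzf4 (Eos) and Ikzf5 (Pegasus). The members were taken by symbol from the deposited expression table, and all 5 were present among its 24453 genes. The family was measured by RNA sequencing of mouse T cells sorted as CD4-positive and Foxp3-positive, in 3 libraries of the line T143, 2 of the line T138 and 3 of wild-type cells (WT). T143 and T138 are lines made by somatic cell nuclear transfer, in which a mouse is cloned from the nucleus of a single cell, so that each line stands for 1 clone. The series description presents T138 as a model of naturally occurring regulatory T cells (Treg cells) and T143 as a model whose development was agonist-induced, and asks whether they are distinct subsets. All 8 libraries, WT included, carry the strain label NOD-Foxp3GFP-Rag1-/-. The label names a Foxp3 reporter and a Rag1 knockout on the NOD background, and it is not known if it applies to the WT animals. If it does not, both lines also differ from WT in Rag1 genotype. Such a difference could not be told apart from that between line and WT. No treatment was given, and age and the number of mice behind the libraries are not given in the sources used here. The p-values therefore reflect only how far these libraries differ among themselves, and some of that spread may be technical.

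Ikaros proteins bind DNA through zinc fingers near the amino end and pair with each other through zinc fingers near the carboxyl end, so that members can form mixed dimers. They act largely by bringing chromatin regulators to their sites, above all the nucleosome remodelling and deacetylase (NuRD) complex. Ikaros is required for lymphoid development, Aiolos is best known from B cells, and Helios and Eos are characteristic of Treg cells, where Helios marks many thymus-derived cells and Eos has been described as a corepressor partner of Foxp3. Pegasus is a more distant relative expressed in many tissues.

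The members share finger domains but not long stretches of sequence, which matters for assigning reads to them. The second finger of the amino-terminal group is shown for the 4 closely related members, as coding bases of the transcripts matched to the deposited genes (GENCODE M21, GRCm38), 5′ to 3′ and 63 bases each, with capitals at bases that differ from Ikzf1.
Ikzf1: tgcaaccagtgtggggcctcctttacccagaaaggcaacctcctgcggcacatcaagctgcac
Ikzf2: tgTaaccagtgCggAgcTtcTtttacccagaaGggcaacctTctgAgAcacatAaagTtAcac
Ikzf3: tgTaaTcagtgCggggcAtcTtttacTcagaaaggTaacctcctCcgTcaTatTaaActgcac
Ikzf4: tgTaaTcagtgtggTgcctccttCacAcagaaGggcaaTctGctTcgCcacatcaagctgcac

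Against Ikzf1, 81.0% of these bases were the same in Ikzf2, 81.0% in Ikzf3 and 84.1% in Ikzf4. The first finger of the carboxyl-terminal pair, the part that all members share, is shown in the same way for Ikzf1, its relative Ikzf2 and the distant member Ikzf5.
Ikzf1: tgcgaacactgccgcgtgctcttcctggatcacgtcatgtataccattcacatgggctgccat
Ikzf2: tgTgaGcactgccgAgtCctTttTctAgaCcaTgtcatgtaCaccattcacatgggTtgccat
Ikzf5: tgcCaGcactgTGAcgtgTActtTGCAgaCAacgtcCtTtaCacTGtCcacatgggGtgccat

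There, Ikzf2 had 82.5% of bases in common with Ikzf1, and Ikzf5 had 68.3%. In-frame matches to the finger spacing (2 cysteine codons 2 codons apart, 12 codons, then 2 histidine codons 3 to 5 apart) numbered 6 in Ikzf1, Ikzf2 and Ikzf4 and 5 in Ikzf3 and Ikzf5. Fingers with other residues or spacing are not counted this way, so a count of 5 does not show that a finger is missing. The longest identical run between any transcripts of 2 members was 32 bases, between Ikzf2 and Ikzf4, and the longest within coding sequence was 26, between Ikzf1 and Ikzf3. The sources used here give no read length.

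The genes lie apart from each other in GRCm38. Ikzf1 is at chr11:11684962-11772930, Ikzf2 at chr1:69531207-69687351, Ikzf3 at chr11:98464610-98546031, Ikzf4 at chr10:128630839-128669671 and Ikzf5 at chr7:131388649-131410518. On the opposite strand, exons of Pstk cover 4652 bases of Ikzf5 exons, counted over all annotated transcripts, so the Ikzf5 value may hold reads of Pstk. Opposite-strand transcripts also share 144 exonic bases with Ikzf2 (Gm29114) and 37 with Ikzf4 (Gm26876). The library kit was stranded, per the labels' protocols, but whether the authors counted by strand is not stated there, and without it such reads cannot be told apart. Splice forms, which in this family can lack DNA-binding fingers, were not resolved, because the table holds 1 value per gene.

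The libraries held 7.83 to 12.6 M recovered reads in T143, 15.84 and 18.41 M in T138 and 14.64 to 22.64 M in WT. Pearson correlation of log2 values within groups was 0.93 to 0.973. The T cell markers were present in every library, with Cd4 at 13240 ± 2531 in T143 (SD, n = 3), 12530 ± 413.7 in T138 (SD, n = 2) and 16360 ± 1465 in WT (SD, n = 3). Values are normalised read counts, that is, reads scaled by the authors to the same total per library. Foxp3, on which the cells were sorted, was at 6305 ± 2387 in T143, 41510 ± 489.9 in T138 and 33830 ± 3550 in WT. All T143 libraries were below all others in Foxp3. In such bulk samples fewer cells of a type and less RNA per cell cannot be told apart. Transcripts of other cells were also present. The 12 myeloid markers made up 0.418 to 2.57% of signal in T143, 0.043 to 0.124% in T138 and 0.00571 to 0.00711% in WT. The 10 dendritic cell markers made up 0.0439 to 0.181% in T143, 0.495 to 0.658% in T138 and 0.00807 to 0.0109% in WT. Erythroid markers, at 0.0131 to 0.0754% in T143, 0.00513 to 0.0111% in T138 and 0.00115 to 0.00268% in WT, were higher in T143 than in WT for 7 of 7 genes tested. Natural killer cell markers, at 0.012 to 0.0168% in T143, 0.00587 to 0.00598% in T138 and 0.00301 to 0.00532% in WT, were higher there for 6 of 8. The part of these cells in the results below was not tested beyond the myeloid covariate given there. The 7 Treg markers made up 0.0674 to 0.117% of signal in T143, 0.498 to 0.503% in T138 and 0.466 to 0.485% in WT, and 6 of 7 were lower in T143 than in T138 and 6 of 7 lower than in WT. Gpr83 was the marker higher in T143 than in T138 (1.62 ± 0.23, limma, adjusted p = 0.00117). In 2 libraries the source name points to another mouse (T138 for replicate 1 of T143, and T143 for replicate 1 of WT), while titles and model labels give the groups used here.

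Across the family, T143 had more Ikaros RNA and less Helios and Eos RNA than both T138 and WT. T138 had less Eos RNA than WT, with Helios inside the WT range. Ikaros in T138 and Aiolos in T143 were lower than in WT by margins close to the threshold. The Ikaros call was kept in 11 of 21 alternative fits and the Aiolos call in 8 of 21. Pegasus did not pass the test in any comparison. Levels below are given first by library, then tested with limma on log2(value + 1) over all 15547 genes that passed a filter on low values, with Benjamini-Hochberg adjustment over those genes and a threshold of 0.05. All 5 members passed the filter.

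**Figure D1:**
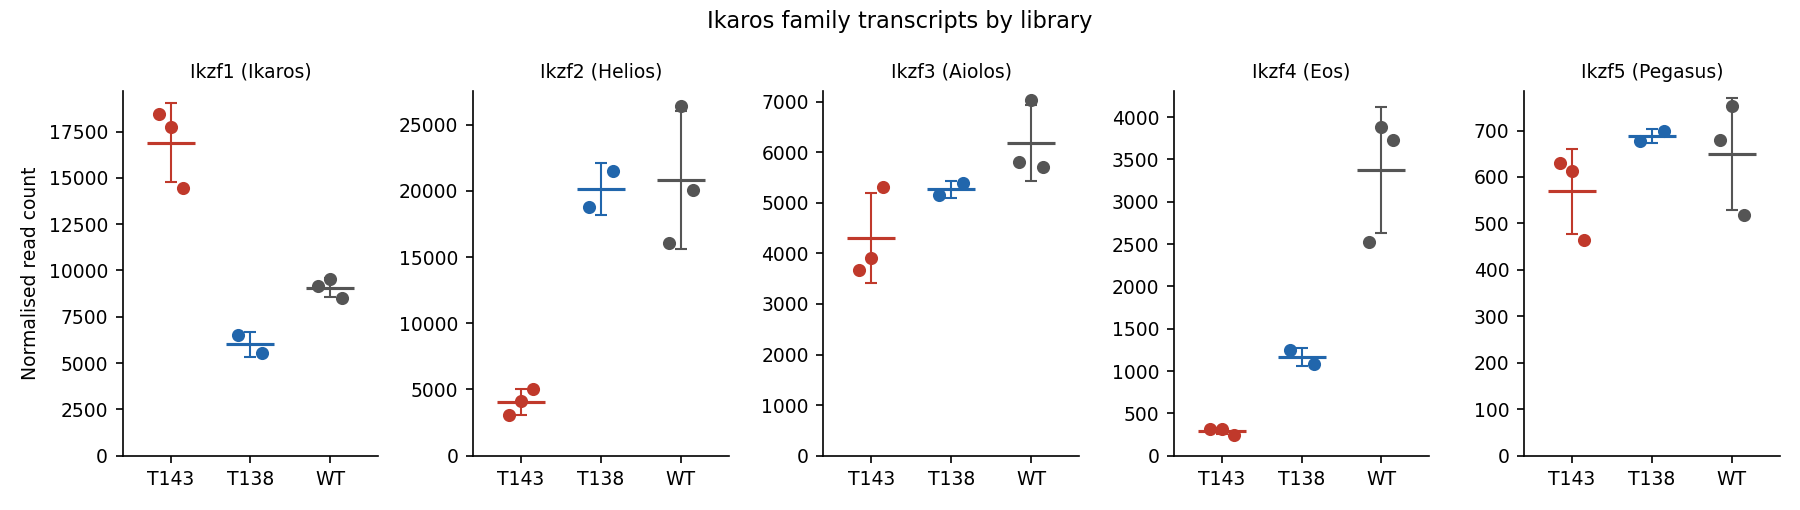
Normalised read count of each member (y axis, starting at 0, 1 panel per gene) in T143, T138 and WT (x axis); points are libraries, horizontal lines are group means and error bars are SD. Ikzf1 lies between 14461 and 18454 in T143, above all other libraries, while Ikzf2 and Ikzf4 lie lowest there and Ikzf5 overlaps between T143 and WT and between T138 and WT.

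Helios (Ikzf2), the member most used as a Treg marker, was at 3073, 4114 and 5014 in T143, at 18760 and 21541 in T138, and at 16080, 26423 and 20084 in WT. Every T143 library was below every other library, and the T138 values lay inside the WT range. The log2 change of T143 against T138 was -2.33 ± 0.24 (SE, limma, adjusted p = 0.000242), and against WT it was -2.36 ± 0.21 (adjusted p = 8.25e-05). Mean Helios RNA was thus 4.95-fold lower in T143 than in T138 and 5.13-fold lower than in WT. For T138 against WT the change was -0.02 ± 0.24 (adjusted p = 0.984), with a 95% interval of -0.55 to 0.50. Changes within that interval could not be resolved with 2 and 3 libraries, and with a covariate for the myeloid marker level the change was -0.83 (adjusted p = 0.701). In the same fit, the change of T143 against WT was -3.59 and did not pass (adjusted p = 0.236). That fit called 0 genes in all for this comparison, with 1413 at an unadjusted p under 0.05, while limma without the covariate called 3698, edgeR 3263 and DESeq2 4219. T143 exceeded WT in all 12 myeloid markers, and the ranges of their summed level did not overlap between the 3 groups. Marker level and group therefore cannot be told apart in any of the 3 comparisons.

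Eos (Ikzf4), the corepressor partner of Foxp3, parted all 3 groups. It was at 314, 312 and 245 in T143, at 1244 and 1088 in T138, and at 2526, 3882 and 3729 in WT. No group overlapped another, with T143 lowest and WT highest. Eos fell in T143 against T138 (log2 change -2.01 ± 0.22, limma, adjusted p = 0.000303) and in T143 against WT (-3.52 ± 0.19, adjusted p = 5.49e-06). Its 11.6-fold lower mean in T143 than in WT was the largest difference between group means within the family. T138 was also lower than WT, by a log2 change of -1.51 ± 0.22 (adjusted p = 0.00184), or 2.9-fold. The T143 values rest on 158, 245 and 198 reads, the fewest of any member in any group. With a covariate for the myeloid marker level, the changes against WT were -2.60 for T143 (adjusted p = 0.357) and -0.91 for T138 (adjusted p = 0.651), and the change of T143 against T138 passed as before. In T143 against T138 too, marker level and group cannot be told apart.

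Ikaros (Ikzf1), the founding member, moved the other way in T143. It was at 18454, 17771 and 14461 in T143, at 6497 and 5549 in T138, and at 9154, 9563 and 8511 in WT. The groups did not overlap, and here T143 was highest, WT intermediate and T138 lowest. Ikaros rose in T143 against T138 by 1.48 ± 0.15 on the log2 scale (limma, adjusted p = 0.000247) and against WT by 0.89 ± 0.14 (adjusted p = 0.00143), which correspond to 2.81-fold and 1.86-fold higher means. The change against WT did not pass when libraries were scaled to 4 CD3 chain genes (0.68, adjusted p = 0.143) or with a covariate for the myeloid marker level (1.42, adjusted p = 0.49). The T143 library with the highest myeloid marker share, 2.57%, had the lowest Ikzf1 of its group, and without it the change against T138 was 1.59. That library (replicate 3) also had the lowest T cell marker share of its group, 0.428%, against 0.724% in replicate 1. The part of myeloid cells in the Ikaros values was not tested beyond the covariate.

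For T138 against WT, the change of Ikaros was -0.59 ± 0.15 (limma, adjusted p = 0.0323), close to the threshold. It did not pass without T138 replicate 1 (adjusted p = 0.0825), T138 replicate 2 (0.237), WT replicate 1 (0.0743), WT replicate 2 (0.0687), WT replicate 3 (0.0616) or T143 replicate 2 (0.0511). The direction was the same in each of these. Dendritic cell markers were higher in T138 than in WT for 9 of 10 genes tested, and their part in the Ikaros values was not tested.

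Aiolos (Ikzf3), a close relative of Ikaros, was at 3666, 3916 and 5318 in T143, at 5147 and 5384 in T138, and at 5807, 7041 and 5707 in WT. WT was above both lines, and the highest T143 library overlapped T138. The change of T143 against WT was -0.54 ± 0.16 (limma, adjusted p = 0.034). Those of T143 against T138 (-0.31 ± 0.18, adjusted p = 0.243, 95% interval -0.71 to 0.09) and of T138 against WT (-0.23 ± 0.18, adjusted p = 0.487, interval -0.62 to 0.17) did not pass. The call against WT was lost on leaving out any library other than T143 replicate 3, with adjusted p = 0.102 without T143 replicate 1, 0.113 without T143 replicate 2, 0.0557 without either T138 replicate, and 0.0543, 0.103 and 0.061 without WT replicate 1, 2 or 3. It was also lost with edgeR on recovered reads (adjusted p = 0.0681). With the myeloid covariate, the changes against WT were -1.68 in T143 (adjusted p = 0.424) and -0.97 in T138 (adjusted p = 0.495).

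Aiolos is also abundant in cells of the B lineage, so their markers were read beside it. The summed level of the 9 B cell markers was 175.1 to 729 in T143, 821.3 to 1140 in T138 and 436.6 to 871.3 in WT. The defining factor genes Ebf1 and Pax5 were at 0 in 8 and in 7 of 8 libraries, while Cd79b and Cd22 were found in every library, at 31.8 to 314 and at 111 to 849. Of the 7 B cell markers tested, only Cd79b was called, lower in T143 than in WT (-2.0 ± 0.54, limma, adjusted p = 0.0222), the direction that Aiolos also had. The joining chain gene Jchain of plasma cells was at 0, 2.55 and 1.24 in T143, at 5.91 and 0.85 in T138, and at 123, 1987 and 955 in WT. Of the other 3 plasma cell markers, Mzb1 was at 0, 2.55 and 1.24 in T143, at 28.5 and 16.9 in T138, and at 11.0, 47.9 and 112 in WT, Sdc1 reached at most 54.1, in T138 replicate 1, and Tnfrsf17 was at 0 in all 8 libraries. Jchain (-8.27 ± 1.08, limma, adjusted p = 0.000616) and Mzb1 (-4.34 ± 0.99, adjusted p = 0.0104) were lower in T143 than in WT. Jchain was also lower in T138 than in WT (-7.43 ± 1.21, limma, adjusted p = 0.00361). Mzb1 was also lower in T143 than in T138 (-3.53 ± 1.11, limma, adjusted p = 0.0457). Aiolos did not pass in either of these further comparisons. WT replicate 2 had the most Ikzf3 and the most Jchain, but Mzb1 and Sdc1 were higher in WT replicate 3. The part of such cells in the Aiolos values was not tested.

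Pegasus (Ikzf5), the distant relative, was at 631, 613 and 464 in T143, at 678 and 699 in T138, and at 680, 753 and 518 in WT. Its changes were -0.29 ± 0.22 for T143 against T138 (limma, adjusted p = 0.387, 95% interval -0.78 to 0.20), 0.10 ± 0.22 for T138 against WT (adjusted p = 0.835, interval -0.39 to 0.59) and -0.19 ± 0.20 for T143 against WT (adjusted p = 0.536, interval -0.62 to 0.25). T143 lay below both T138 libraries, and WT overlapped both lines. The myeloid covariate moved the change to 0.60 for T138 against WT (adjusted p = 0.786) and to 0.58 for T143 against WT (adjusted p = 0.879). The opposite-strand overlap with Pstk holds for each of these values.

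**Figure D2:**
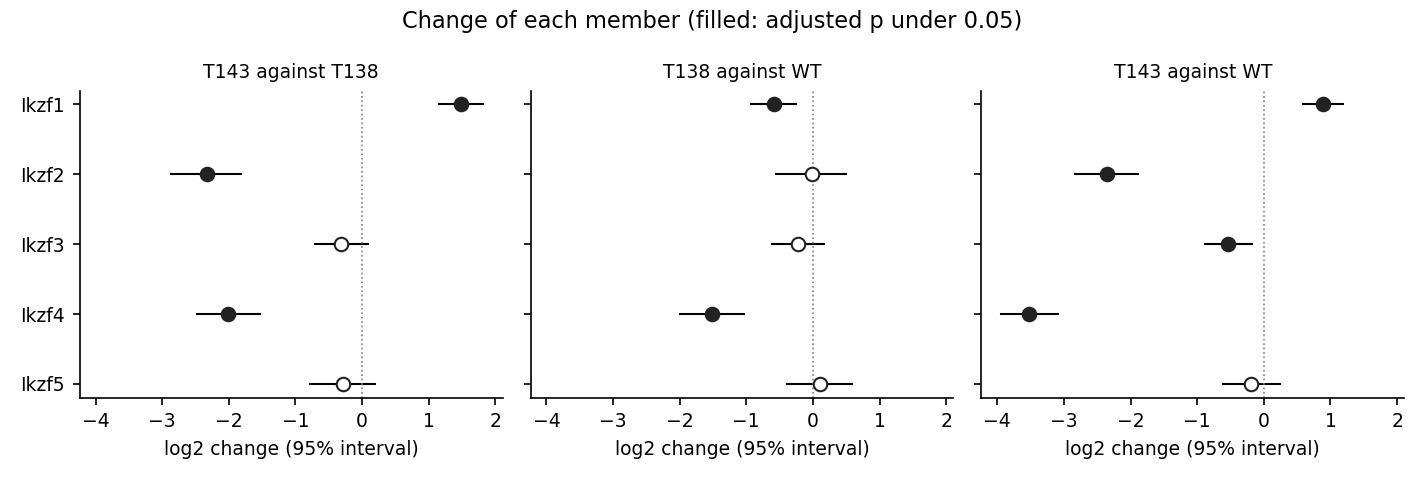
Log2 change of each member (x axis, log2(value + 1) scale) with its 95% interval from limma, for T143 against T138, T138 against WT and T143 against WT; filled points passed at an adjusted p under 0.05. Ikzf1 stands right of 0 in both comparisons of T143 and Ikzf2 and Ikzf4 left of it, while Ikzf2 sits at -0.02 for T138 against WT.

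These counts stand against a background in which many genes differed. For T143 against T138, 1 member was higher and 2 lower of 5, beside 10.8% of all genes tested higher and 10.2% lower (21.0% called in all). Against WT, T143 had 1 member higher and 3 lower, beside 11.7% higher and 12.1% lower (23.8% in all). T138 had 0 members higher and 2 lower than WT, beside 5.74% higher and 5.30% lower (11.0% in all). Those 2 were the same count at an unadjusted p under 0.05 and by edgeR and DESeq2, with 0 higher in each. Without overlap between groups were 4 of 5 members for T143 against T138 (51.7% of all genes tested), 3 of 5 for T138 against WT (37.5%) and 4 of 5 for T143 against WT (40.7%). The median log2 change of the members was -0.31 (T143 against T138, all genes 0.152), -0.23 (T138 against WT, all genes -0.065) and -0.54 (T143 against WT, all genes 0.053). The 3 comparisons share their libraries and are not independent of each other.

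Read per kilobase of the matched transcript, which lets genes be set beside each other, the lines differed in which member prevailed. Ikaros took 56.6 to 69.9% of the summed family level per kilobase in T143, 20.5 and 24.8% in T138, and 24.5 to 30.9% in WT. Helios took 6.48 to 10.9% in T143, 39.8 and 44.3% in T138, and 30.2 to 37.7% in WT. Helios was the member with the highest level per kilobase in both T138 libraries and in WT replicates 2 and 3, Ikaros in all T143 libraries and, by a ratio of 1.02, in WT replicate 1.

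The ratio of Ikaros to Helios per kilobase was 10.8, 7.76 and 5.18 in T143, against 0.622 and 0.463 in T138 and 1.02, 0.65 and 0.762 in WT. All T143 libraries stood clear of all others, while the highest T138 ratio lay just below the lowest in WT. Aiolos took 19.6 to 29.4% in T143, 27.7 and 28.1% in T138, and 25.1 to 27.7% in WT. Eos took 0.962 to 1.19% in T143, 4.03 and 4.75% in T138, and 8.55 to 11.7% in WT, and Pegasus at most 3.01% in any library.

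The summed family level per kilobase was 5111, 5155 and 4947 in T143, against 5082 and 5237 in T138 and 5738, 7549 and 6214 in WT. T143 and T138 overlapped, and both lay below WT. These shares depend on the transcript length used, which is 9278 bases for Ikzf2 and 3658 to 5163 for the others, and they are a description with no test.

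**Figure D3:**
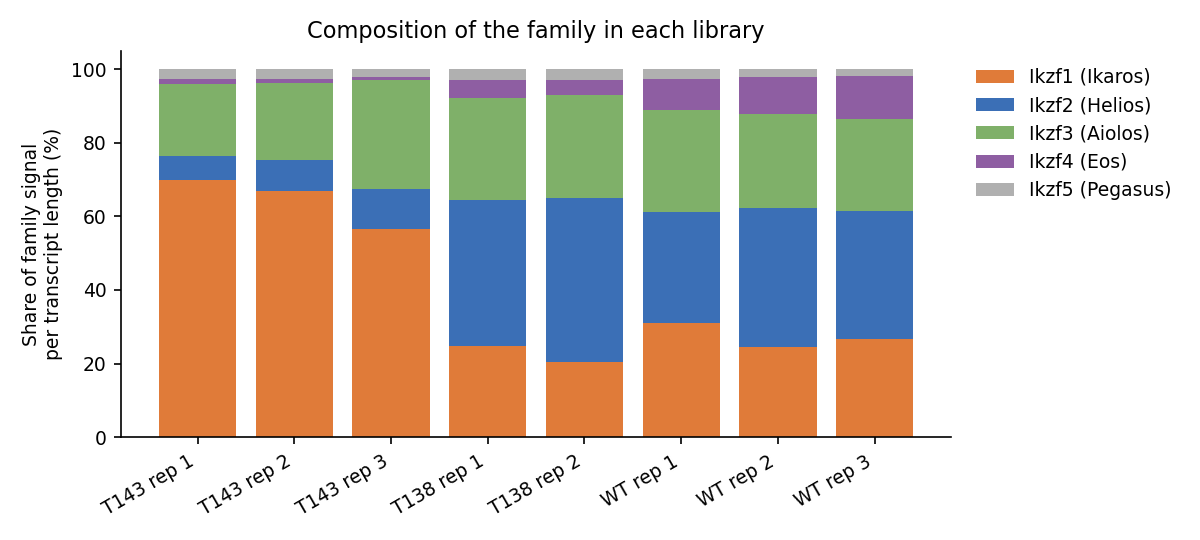
Share of each member in the summed family level per kilobase of transcript (y axis, percent) in each library (x axis, T143, T138 and WT replicates). Ikzf1 fills 56.6 to 69.9% of the bar in T143 libraries, where Ikzf2 fills 6.48 to 10.9%.

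Helios was next set against Foxp3, since both were low in T143. The ratio of Ikzf2 to Foxp3 values was 0.784, 0.653 and 0.577 in T143, against 0.448 and 0.523 in T138 and 0.54, 0.727 and 0.568 in WT. T143 overlapped WT, and T138 lay below both groups. The log2 ratio differed by 0.46 between T143 and T138 (exact permutation test, two-sided, p = 0.2, the smallest that 3 against 2 libraries allow) and by 0.14 between T143 and WT (exact permutation p = 0.5, smallest possible 0.1). Between T138 and WT it differed by -0.32 (exact permutation p = 0.2, the smallest possible). Without T143 replicate 1 and WT replicate 1, the libraries with discordant source names, the difference of T143 from WT was -0.07. Over the 8 libraries the log2 values of Ikzf2 and Foxp3 had a Pearson r of 0.986, given as a description, since the libraries fall into groups and share their scaling. Inside T143, the library lowest in Foxp3 (replicate 1, at 3920) was also lowest in Ikzf2, and replicate 3, highest in Foxp3 at 8694, was highest in Ikzf2.

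Eos was set against Foxp3 in the same way. Ikzf4 over Foxp3 was 0.0802, 0.0495 and 0.0282 in T143, against 0.0297 and 0.0264 in T138 and 0.0849, 0.107 and 0.105 in WT. WT stood above both lines, and the T143 library highest in Foxp3 overlapped T138. The ratio of Helios to Eos values was 9.77, 13.2 and 20.5 in T143, against 15.1 and 19.8 in T138 and 6.36, 6.81 and 5.39 in WT. Both lines thus had more Helios RNA per Eos RNA than any WT library. The log2 ratio was higher by 1.16 in T143 than in WT and by 1.49 in T138 than in WT (exact permutation, two-sided, p = 0.1 and p = 0.2, each the smallest possible with these numbers of libraries). T143 and T138 differed by -0.33 (exact permutation p = 0.6).

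**Figure D4:**
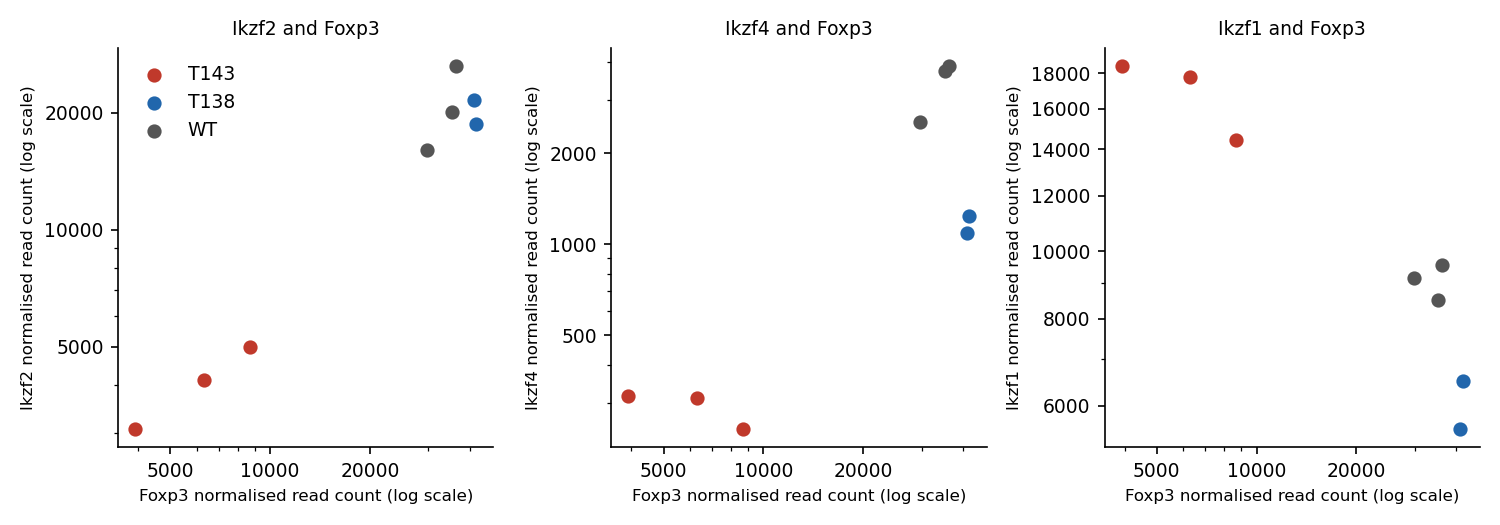
Ikzf2, Ikzf4 and Ikzf1 (y axes, normalised read count, log scale) against Foxp3 (x axes, normalised read count, log scale) in each library of T143, T138 and WT. Ikzf2 and Foxp3 are both lowest in T143, but the highest Ikzf2 (26423, WT replicate 2) is at a Foxp3 of 36360, below both T138 libraries. Ikzf4 in T138 lies at 1088 and 1244 although Foxp3 there is at 41160 and 41850, and Ikzf1 is highest where Foxp3 is lowest.

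The genes whose log2 values ran most closely with each member over the 8 libraries were taken from 7608 other named genes of above-median level, by Pearson r and as a description. For Ikzf2 they were Mbd6 (r = 0.993), Ankrd16 (0.993) and Trim39 (0.992). Mbd6 encodes a methyl-CpG-binding domain protein and was at 1461, 2017 and 1958 in T143, at 4470 and 4482 in T138, and at 4031, 5012 and 4235 in WT. For Ikzf4 they were Cd200 (0.993), Rrnad1 (0.991) and Zfp862-ps (0.991). Cd200, an inhibitory surface glycoprotein, was at 515, 465 and 520 in T143, at 1108 and 974 in T138, and at 1743, 2014 and 2184 in WT. This order of groups is that of Eos. Choosing genes by r with Ikzf4 favours it, so it is no separate observation.

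For Ikzf1 the closest were Pptc7 (0.992), Pik3ip1 (0.988) and Spcs3 (0.987). Pik3ip1, an inhibitor of phosphoinositide 3-kinase signalling found on resting T cells, was at 2187, 1773 and 1282 in T143, at 358 and 289 in T138, and at 812, 751 and 692 in WT. For Ikzf3 they were Camk2d (0.98), Irf4 (0.975) and Eea1 (0.965), and for Ikzf5 they included Arid4b (0.957) and Fam208a (0.943). The 8 libraries fall into 3 groups and share their scaling, so such values largely describe the order of the groups. Among the members, Ikzf2 and Ikzf4 had r = 0.901 and Ikzf1 and Ikzf2 r = -0.899.

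Among the chromatin partners of the family, calls went in both directions. As background, limma called 21.0% of all genes tested between T143 and T138. Between each line and WT it called 23.8% (T143) and 11.0% (T138). Of 14 NuRD genes, 3 were higher and 1 lower in T143 than in T138, with a median log2 change of 0.12, near the 0.152 of all genes. The 3 were Chd4, the remodelling ATPase of the complex (0.67 ± 0.13, limma, adjusted p = 0.00624), the deacetylase gene Hdac2 (0.74 ± 0.19) and the histone chaperone gene Rbbp4 (0.62 ± 0.20), and the scaffold gene Mta3 fell (-0.62 ± 0.17). Against WT, T143 had 1 higher (Rbbp4, 0.61 ± 0.18) and 2 lower, namely Chd3, the alternative ATPase (-1.04 ± 0.18, limma, adjusted p = 0.00295), and Hdac1 (-1.13 ± 0.24).

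T138 had 0 NuRD genes higher and 2 lower than WT by limma, edgeR and DESeq2 alike, and 0 higher and 4 lower at an unadjusted limma p under 0.05. The 2 were Chd3 (-0.87 ± 0.21, limma, adjusted p = 0.0229) and Chd4 (-0.58 ± 0.13). Chd3 was at 15320, 18750 and 11040 in T143, at 16750 and 16380 in T138, and at 28640, 34420 and 27910 in WT. It was lower in both lines than in any WT library. Hdac1 was at 350, 304 and 270 in T143, at 277 and 514 in T138, and at 669, 668 and 674 in WT. Both lines were below WT in Hdac1, and T138 against WT did not pass (adjusted p = 0.0783).

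Among 7 other described partners, Ctbp1, which encodes the corepressor named with Eos, rose in T143 against T138 (0.54 ± 0.16, limma, adjusted p = 0.0329) and against WT (0.45 ± 0.14, adjusted p = 0.0378). Its paralogue Ctbp2 was at 33.8, 141 and 286 in T143, at 65.9 and 32.2 in T138, and at 2.07, 6.39 and 0 in WT. It was higher in both lines than in WT (5.31 ± 0.99, adjusted p = 0.00369, and 4.06 ± 1.10, adjusted p = 0.0396), and in T143 its highest library was the one with the highest myeloid share. The part of myeloid cells in it was not tested.

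The chromatin remodelling subunit genes Smarcc1 and Smarcb1 were higher in T143 than in T138 (0.89 ± 0.20 and 0.61 ± 0.19) and lower in T138 than in WT (-0.86 ± 0.20 and -1.01 ± 0.19). Of the 7, 3 were higher and 0 lower for T143 against T138. The counts were 1 and 2 for T138 against WT, and 2 and 0 for T143 against WT. In the same order, the medians were 0.54, -0.20 and -0.13, beside 0.152, -0.065 and 0.053 for all genes tested. The shares of all genes called were 21.0%, 11.0% and 23.8%. edgeR and DESeq2 also called 0 lower in both comparisons of T143, where limma had 1 lower in each at an unadjusted p under 0.05. The corepressor genes Sin3a and Sin3b and the ATPase gene Smarca4 did not pass in any of the 3.

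Genes that act on Ikaros proteins after translation were also read. Their counts stand beside 21.0% of all genes tested called between the 2 lines. Between T143 and WT that share was 23.8%, and between T138 and WT it was 11.0%. Of 5 genes of the cereblon ubiquitin ligase, the complex through which thalidomide analogues degrade Ikaros and Aiolos in human cells, 2 were higher and 0 lower in T143 than in T138, namely Cul4b (0.72 ± 0.20, limma, adjusted p = 0.0299) and Ddb1 (0.60 ± 0.13, adjusted p = 0.0116). None was lower there by edgeR, by DESeq2 or at an unadjusted limma p under 0.05. Against WT, limma called 0 of the 5 in either line. At an unadjusted p under 0.05 there was 1 higher in T143 and 1 lower in T138, edgeR called 0, and DESeq2 called 1, lower in T138. Crbn, the substrate receptor, did not pass in any of the 3 comparisons. Of 6 genes of casein kinase 2 and protein phosphatase 1, enzymes that phosphorylate and dephosphorylate Ikaros, limma called only the phosphatase gene Ppp1cb. For T138 against WT it called 0, as did edgeR and DESeq2, with 1 lower at an unadjusted p under 0.05. It was at 7097, 6474 and 5965 in T143, at 3528 and 3454 in T138, and at 3454, 2458 and 2554 in WT, and was higher in T143 than in T138 (0.90 ± 0.17, adjusted p = 0.00495) and than in WT (1.22 ± 0.15, adjusted p = 0.000482).

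**Figure D5:**
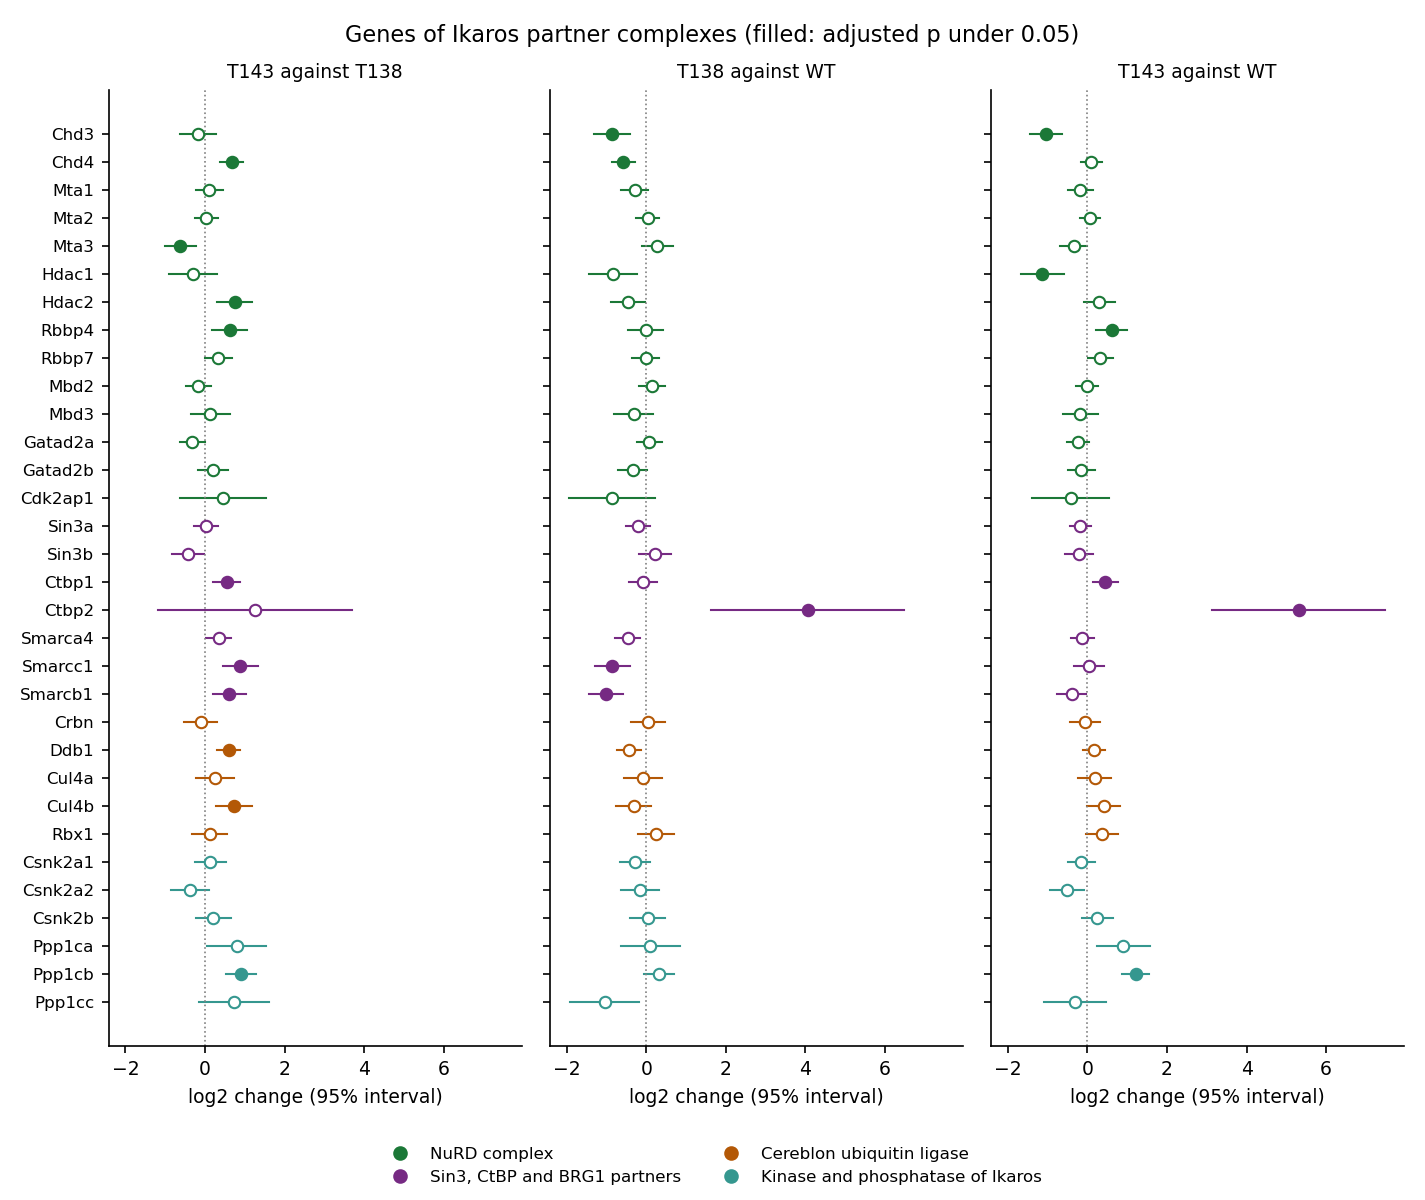
Log2 change (x axis, log2(value + 1) scale) with its 95% interval from limma for genes of 4 partner lists (y axis, coloured by list) in the 3 comparisons; filled points passed at an adjusted p under 0.05. Of 96 values, 8 lie beyond 1 log2 unit, the farthest being those of Ctbp2, a low gene with wide intervals, at 4.06 and 5.31 against WT.

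Factors described with Eos in the Treg programme went different ways. The background here was again 21.0% of all genes called between the lines, with 23.8% (T143) and 11.0% (T138) called relative to WT. Of 5, Satb1 and Lef1, both factors of resting T cells, were higher (3.2 ± 0.22, limma, adjusted p = 2.5e-05, and 1.57 ± 0.32, adjusted p = 0.00781) and Foxp3 was lower in T143 than in T138. Lef1 was at 10130, 8159 and 3834 in T143, at 2430 and 2157 in T138, and at 3487, 3749 and 4053 in WT. Satb1 was at 16040, 13830 and 9229 in T143, at 1301 and 1472 in T138, and at 6239, 6875 and 5100 in WT, an order of groups shared with Ikaros. T138 had 1 of 5 lower than WT (Satb1) and 0 higher by limma, edgeR and DESeq2, as also at an unadjusted p under 0.05. T143 had 1 higher (Satb1) and 2 lower (Foxp3 and Irf4) than WT. By edgeR, by DESeq2 and at an unadjusted limma p under 0.05, 2 were higher and 2 lower in that comparison, and Lef1 just missed the threshold in limma (0.86 ± 0.29, adjusted p = 0.0544).

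Of 12 genes described as targets of Ikaros factors in T cells, Dtx1 (1.72 ± 0.17, limma, adjusted p = 0.000242) and Bcl2 (1.60 ± 0.17, adjusted p = 0.000315) were higher and Prdm1 (-1.92 ± 0.46, adjusted p = 0.0171) lower in T143 than in T138. Of all genes tested, 21.0% were called in that comparison. By edgeR 2 of the 12 were higher and 0 lower, so that Prdm1 was not called, and by DESeq2 3 were higher and 2 lower. Dtx1, a Notch pathway gene, was at 4806, 4285 and 4821 in T143, at 1583 and 1247 in T138, and at 7226, 5264 and 6600 in WT. Bcl2, which protects from cell death, was at 5433, 4252 and 3892 in T143, at 1511 and 1453 in T138, and at 6410, 7618 and 5917 in WT. Both were lowest in T138, as Ikaros was. They differed from it in T143, where neither was above WT: Bcl2 was lower there (-0.56 ± 0.16, limma, adjusted p = 0.0246).

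In the comparisons with WT, 11.0% (T138) and 23.8% (T143) of all genes tested were called. T138 had 0 of the 12 higher and 3 lower than WT, namely Dtx1 (-2.17 ± 0.17, limma, adjusted p = 8.76e-05), Bcl2 (-2.16 ± 0.17, adjusted p = 9.01e-05) and Bcl6 (-1.23 ± 0.31). T143 had 0 higher and 1 lower. By edgeR the counts were 0 and 2 for T138 and 0 and 1 for T143, by DESeq2 1 and 3 and 0 and 1, and at an unadjusted limma p under 0.05 they were 3 and 4 and 1 and 3. Il2, the cytokine gene that Ikaros factors repress, was at 0 in 6 of 8 libraries and at most 8.36, and 3 reads, the limit that a count of 0 allows, correspond to a value of 2.07 to 5.97. Its expression was therefore not detectable in most libraries at this depth. Limits of this kind cover counting error only.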

How the data were processed

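RNA was sequenced from 8 libraries of sorted T cells. Tools listed in the submitters' processing notes, without role or order, were CASAVA (1.8.2), the aligner STAR (2.5.2b), the package HOMER (4.8) and edgeR, and the build was mm10. The authors deposited 1 table of signal, read counts per gene scaled to 15.59 M per library. Dividing by each library's smallest step gave whole reads for 100% of values within 0.01 units, 7.83 to 22.64 M per library. At that depth 3 reads, the limit a count of 0 allows, equal 2.07 to 5.97 units.

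Genes at 1 or more in at least 2 libraries (15547 of 24453) were fitted with limma 3.58.1 in R 4.3.3 on log2(value + 1), all 8 libraries together, with trend and robust variance, Benjamini-Hochberg adjustment and a threshold of 0.05. Ratios used exact permutation tests. edgeR 4.0.16 and DESeq2 1.42.0 on recovered reads, and other scalings, filters, covariates and left-out libraries, were alternatives. On simulated data 82 to 90% of 4-fold and 23 to 38% of 2-fold changes were recovered, with 7.89 to 11.7% false calls, above the threshold of 0.05. Far fewer genes were changed there than were called in the data, and no mixture of cell types was simulated. These rates may therefore not hold for the data. The sample titles carry replicate letters, read here as numbers. Same-numbered libraries did not deviate together (correlations -0.06 to 0.05), so they were not treated as pairs. The check is weak for T138, where the deviations of 2 libraries from their mean mirror each other.

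Named genes were the members, the called genes of the listed partner groups and the 3 genes most like each member. Other genes named for their values were chosen after those were seen. The members and lists were chosen with earlier results of these data known. Sequences came from GENCODE M21 transcripts, positions from RefSeq on GRCm38. Some genes and sequences that met these rules are not reported here.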

Additional observations from a re-analysis of the deposited data

How the results depend on the processing

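Of 315 alternative values for the members, 280 kept their direction and side of the threshold. Ikzf1, Ikzf2 and Ikzf4 in T143 against T138 did so in 21 of 21 alternatives, with log2 changes of 1.25 to 1.71, -2.76 to -2.15 and -2.24 to -1.69. The myeloid covariate among these cannot separate marker level from group. Scaling to CD3 genes gave 1184 (T143 against T138), 699 (T138 against WT) and 1646 (T143 against WT) called genes, against 3272, 1716 and 3698. It gave Ikzf1 -0.58 in T138 and 0.68 in T143 and Ikzf3 -0.75 in T143, all against WT and not called. That scaling moved the median of all genes by -0.233 in T143 against T138 and -0.214 against WT. Median centring gave Ikzf1 -0.64 in T138 against WT, not called (limma, adjusted p = 0.0735).

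The myeloid covariate left 1038, 1 and 0 called genes in the same order of comparisons. At an unadjusted p under 0.05 there were 3394, 1461 and 1413. It gave Ikzf1 -0.25, Ikzf2 -0.83, Ikzf3 -0.97, Ikzf4 -0.91 and Ikzf5 0.60 in T138 against WT, and Ikzf1 1.42, Ikzf2 -3.59, Ikzf3 -1.68, Ikzf4 -2.60 and Ikzf5 0.58 in T143 against WT, none called. Ikzf3 in T143 against WT was also not called with quantile normalization (-0.46), edgeR (-0.47) or only these groups in the fit (-0.54). The cause was not tested for any of these.

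Leaving out 1 library gave 1345 to 3674 called genes for T143 against T138, 757 to 1837 for T138 against WT and 2460 to 3575 for T143 against WT. The lowest counts came without T138 replicate 2 (1345 and 757) and T143 replicate 2 (2460). Other counts more than 1.5-fold below the full fit were 2025 without T143 replicate 2 and 2050 without T138 replicate 1 (T143 against T138), and 998 without T138 replicate 1 and 1103 without WT replicate 3 (T138 against WT). In T138 against WT, Ikzf1 ranged from -0.71 to -0.48, Ikzf2 from -0.20 to 0.16 (positive without T138 replicate 1 or WT replicate 2) and Ikzf5 from -0.06 to 0.21 (negative without WT replicate 3). Ikzf3 in T143 against WT ranged from -0.70 to -0.43. Without T138 replicate 1 and T143 replicate 3 there were 1737 and 989 called genes (T143 against T138, T138 against WT), and Ikzf2 was 0.08 in T138 against WT. Leaving out both libraries whose source name points to another mouse (T143 replicate 1, WT replicate 1), Ikzf1 was -0.59 in T138 against WT (adjusted p = 0.0775), Ikzf3 was -0.47 in T143 against WT (0.133), and the log2 ratio of Ikzf2 to Foxp3 was -0.07.

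With the replicate number as a block, 13 of 15 member values kept their direction and side of the threshold, and Ikzf2 (0.05) and Ikzf5 (-0.05) in T138 against WT changed sign without being called. Depth limits Ikzf4 in T143 most, at 158 to 245 reads.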
